A study of Mus musculus with 37 samples.

Results

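Described here are the main open reading frames (ORFs) of 1500 codons or more in the authors' list of translated ORFs of mouse dendritic cells. An ORF is a run of codons that opens with a start codon and closes with a stop codon in the same frame. The main ORF of a family of transcripts was the ORF with the most codons on its chromosome and strand, ties going to the higher score and then to the name. Of 10418 main ORFs, 503 had 1500 codons or more (4.83%), and they stood for 497 named genes. Only length chose them, so their lengths are a description. Their families held 1424 of all 22367 listed ORFs (6.37%). The long main ORFs held 1124880 of the 5913065 codons of all main ORFs (19.0%).

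The list came from ribosome profiling, in which the RNA pieces covered by ribosomes are kept from nuclease and sequenced, of bone marrow-derived dendritic cells of C57BL/6J mice aged 6 to 8 weeks. The 37 libraries comprised cycloheximide libraries (100 ug/mL for 1 min; 16 with LPS as 2 replicates of 8 times, 8 mock and 2 naive replicates), libraries without drug (8 with LPS and 1 naive), and 1 library each with harringtonine (1 ug/mL for 5 min) and lactimidomycin (50 ug/mL for 30 min) from mixed LPS times. Lipopolysaccharide (LPS), a bacterial cell wall component, was given at 100 ng/mL on day 9 of culture for 0.5, 1, 2, 4, 6, 8, 9 or 12 h. One list covers all libraries, with a single value for each ORF. Hence no comparison of LPS with mock or of inhibitors was made, the depth is unknown, and no ORF has a value per replicate or a p-value. Intervals are exact Clopper-Pearson intervals at the 95% level over main ORFs and cover counting error only.

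Dendritic cells take up antigens, present them to T cells and migrate to lymph nodes, which calls on a large actin and microtubule apparatus, on exchange factors that switch small GTPases, and on membrane traffic. Giant proteins in animal cells are mostly built from repeated domains, such as spectrin repeats, HEAT repeats and zinc fingers, or combine many domains in one scaffold or motor. A ribosome reaches the start codon of such an ORF after scanning the leader, the transcript stretch before it, where a short upstream ORF can hold or divert it. A purine 3 bases before the ATG and a G right after it favour initiation in mammals.

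The sequence at the start could be read for a few of these ORFs, where the listed leader was so short that RefSeq's window of the gene's transcript start (GRCm38.p6, 50 bases from that start) reached the start codon. Leader lengths came from the authors' mm9 models and were laid on the RefSeq windows by their offset from the transcript start, with no conversion of coordinates. Of the 35 long main ORFs with a leader of at most 47 bases, 30 had a window on their chromosome and strand, and 13 of these had an ATG at the listed start (43.3%, interval 25.5 to 62.6). The share was 57.2% (550 of 961) for shorter main ORFs. Some of the 30 had a listed leader of 0 bases, and among those only Gm17296 had an ATG there. The part of such leaders in the difference was not tested. Where there was no ATG, a different transcript start and a start codon other than ATG cannot be told apart. Of 21 upstream ORFs of the long main ORFs that could be placed, 8 had an ATG (38.1%, interval 18.1 to 61.6), against 39.0% (101 of 259) in shorter families. The windows below show 15 bases before the start codon and 6 after it, 5′ to 3′ on the strand of the gene, with the start codon in capitals. The first 4 are main starts and the next 4 starts of upstream ORFs, all with the letters AAGATGGC, and the last 2 are shown for contrast.
Nup205 main start, chr6:35177617-35177640, plus strand: cagtcctcctccaagATGgcggcg
Ubr4 main start, chr4:139380672-139380695, plus strand: gtagtacgacgaaagATGgcgacg
Zfp292 main start, chr4:34882911-34882934, minus strand: gagcgggctgcgaagATGgcggac
Spg11 main start, chr2:122118360-122118383, minus strand: accgcccaggccaagATGgctgcc
Dnajc13 upstream start, chr9:104262894-104262917, minus strand: caagcctggtggaagATGgcggcg
Dock1 upstream start, chr7:134670703-134670726, plus strand: gggaaggaatggaagATGgcggcc
Htt upstream start, chr5:34761760-34761783, plus strand: cgggacgggcccaagATGgctgag
Sec16a upstream start, chr2:26445172-26445195, minus strand: gccggatgtgccaagATGgctgcg
Utp20 upstream start, chr10:88826795-88826818, minus strand: tcctggctttccaacATGgcggcg
Map3k4 main start, chr17:12318620-12318643, minus strand: aagcttggtgcacggATGagagac

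The bases around these start codons were alike between main and upstream ORFs. A purine stood 3 bases before the ATG in 12 of 13 main starts and 8 of 8 upstream starts, and a G followed the ATG in 11 of 12 main starts that could be read and in 8 of 8 upstream starts. In shorter families a purine stood there in 509 of 550 main starts (92.5%) and 83 of 101 upstream starts (82.2%). A G followed in 413 of 542 main starts (76.2%) and 70 of 100 upstream starts (70%). Map3k4, a kinase of stress signalling, was the main start with neither. The letters AAGATGGC, chosen after the windows were seen, lay at the start codon of 4 of 12 main and 4 of 8 upstream starts, against 83 of 535 main starts (15.5%) and 17 of 99 upstream starts (17.2%) of shorter families. Counts this small do not separate the groups. Searched on both strands of the 300-base RefSeq windows, AAGATGGC occurred in 2.75% of all 32851 windows, in 5.68% of 493 windows of genes with a long main ORF and in 4.77% of 10064 windows of genes with a shorter one. On the strand of the gene alone the shares were 1.68%, 5.48% and 3.27%, and from the transcript start on 0.889%, 4.67% and 2.14%. ATGGCGGC, which shares 5 letters with it, occurred on either strand in 2.24%, 6.09% and 4.98%, and from the transcript start on in 0.935%, 3.85% and 2.39%. Both words were picked from start windows that are among the 493 searched, so the shares for long main ORFs were partly set by that choice. As background, these letters form the core of an initiator element known from transcripts with very short leaders and of the binding motif of the factor YY1. A match is no evidence of either. The 2 upstream ORFs short enough to be read whole, of 3 codons in Dock1 and 10 in Utp20, ended at a stop codon where the list puts it.

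Most of these ORFs were assembled from many short exons, and a few from 1 very long exon. They had a median of 34 coding exons (quartiles 23 to 43) against 8 (4 to 13) for shorter main ORFs, and spanned a median of 73.9 kb of genome against 15.2 kb. Of the 80 main ORFs of any length with over 50 coding exons, 77 were among them. The longest were Dst with 7602 codons in 101 coding exons, which encodes the cytoskeletal linker dystonin, and Syne2 with 6875 codons in 115, which encodes nesprin-2, a spectrin-repeat protein that ties the nucleus to actin. Ahnak followed with 5656 codons, then Mdn1, a ribosome assembly ATPase, and Mll2 with 5589 each. Mll2 is an older name of Kmt2d, a histone H3 lysine 4 methyltransferase. The next were Macf1 (5390), a linker of actin and microtubules, Ubr4 (5180), a ubiquitin ligase, the family named Mir1932 (5149), 4932438A13Rik (5042) and Abca13 (5034), a lipid transporter of the ABC family.

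Single exons carried a large part of some of them. A coding exon of 3000 bases or more was present in 76 long main ORFs, of 111 main ORFs of any length that had one. In Ahnak, a giant scaffold protein, 1 exon of 16626 bases held nearly all of the ORF, which has 3 coding exons in 18.2 kb. In Spen, a corepressor of Notch and nuclear receptor target genes, the longest coding exon had 8020 bases. Only 4 long main ORFs lay in a single coding exon, against 7.02% of all main ORFs: Gvin1 and Gvin1_2, the family TCONS_00085712, and Samd9l, an interferon-induced restriction factor, with 1579 codons. Gvin1 encodes a very large interferon-inducible GTPase, a family that interferon-treated mouse cells make. Both Gvin1 entries had 2427 codons, a score of 985, a leader of 311 bases and a trailer of 1441 bases at different places of chromosome 7, chr7:113045074-113052357 and chr7:113301491-113308774 in mm9. Footprints of copies this alike may be shared between them, so their 2 entries are uncertain as separate ORFs.

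**Figure D1:**
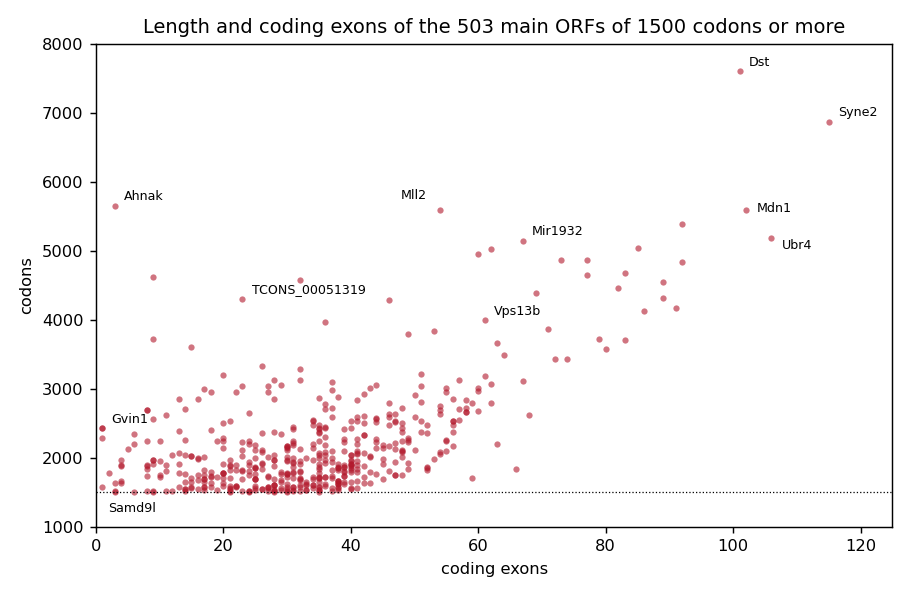
Codons of each of the 503 main ORFs (vertical axis) against its number of coding exons (horizontal axis), 1 point per ORF, with the dotted line at 1500 codons. Dst and Syne2 stand at the upper right with over 100 exons, while Ahnak reaches 5656 codons with 3 exons and Gvin1 and Samd9l have a single one.

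The other end of the length range was dense. Just inside the limit were Abcc10 with 1501 codons, Gemin5 and Mapkbp1 with 1502 and Arhgap5 and Golga3 with 1503. Just outside were Grlf1 with 1499 codons, D14Abb1e with 1498, Ralgapb with 1495, Bcl9l with 1491 and Lmtk2 with 1490. Grlf1 is an older name of Arhgap35, a GTPase-activating protein, so that 2 proteins of 1 family, Arhgap5 and Arhgap35, fall on either side of the limit. Further up, 59 main ORFs had 3000 codons or more and 26 had 4000 or more. The genomic span was widest in Vps13b (558.1 kb), a lipid transfer protein, and Lrba (556.4 kb), a BEACH protein of vesicle traffic.

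The authors gave each ORF a score, a whole number that runs from 500 to 991 in the list. Its scale is not given in the sources used here, and it is used only to rank ORFs within the list. Long main ORFs scored lower than shorter ones. Their median was 863 (interval 848 to 873, quartiles 760 to 939) against 927 (926 to 930, quartiles 800 to 969). A score of 900 or more was reached by 195 of them (38.8%, interval 34.5 to 43.2), against 56.7% of all main ORFs, and a score under 700 was given to 91 (18.1%) against 15.3%. The median was 880 (850 to 901) under 100 codons, which overlaps that of the long main ORFs, and 957 at 100 to 249. It was lower in each class from there to the limit, from 935 at 250 to 499 codons through 910 at 500 to 999 and 876 at 1000 to 1499. Within the long main ORFs the medians of 864 at 1500 to 1999 codons, 871 at 2000 to 2999 and 851 at 3000 or more had intervals that overlapped. The lower level is thus shared with main ORFs of 1000 to 1499 codons and of under 100.

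**Figure D2:**
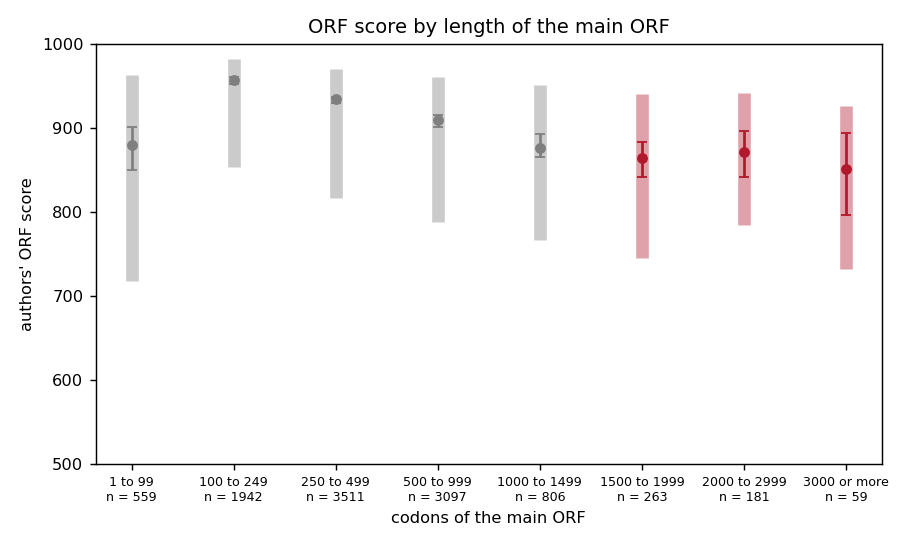
Median of the authors' ORF score (points, with 95% order-statistic intervals) and quartiles (pale bars) by codons of the main ORF, with the number of main ORFs under each class. The 3 red classes are main ORFs of 1500 codons or more, with medians of 864, 871 and 851.

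The highest scores belonged to Mir1932 and Tln1 (991 each), Znfx1 (990), Dnmt1 (987) and Prrc2a (986). Others, such as Xrn1, Heatr5b and Cep170, also scored 986, and Prrc2a is named first as it had more codons. Tln1 encodes talin-1, which links integrins to actin, Znfx1 an interferon-induced RNA helicase that senses viral RNA, and Dnmt1 the maintenance DNA methyltransferase. The lowest belonged to Lrba (511), Speg (512), Ino80 (513), Zcchc6_3 (518) and Abca2 (519). Ino80 is the ATPase of a chromatin remodelling complex, Speg a kinase best known from striated muscle, and Abca2 a lipid transporter of lysosomes. Dst, the longest of all, scored 951, so length and a high score were found together in single ORFs.

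Upstream ORFs were listed more often in the leaders of long main ORFs than in those of the list at large. Of 503 families, 160 had an ORF that began upstream (31.8%, interval 27.8 to 36.1), against 20.2% of all main ORFs. The class just below the limit, 1000 to 1499 codons, had 27.4% (24.4 to 30.6), an interval that overlaps that of the long main ORFs, and main ORFs under 100 codons had 23.8%. In 135 of them it ended before the main start (background 16.3%) and in 36 it ran over it (background 5.30%). The families held 236 upstream ORFs of the first kind, with a median of 19 codons and a median score of 760.5, and 43 of the second, with a median of 30 codons and a median score of 728. Most families with any had 1 (101 families), 30 had 2, and the rest had 3 to 11. The ORFs that ended before the main start stopped a median of 136.5 bases before it (quartiles 60.5 to 271), where both lay on a listed transcript. A score above that of the own main ORF was held by 55 of the 236 and by 17 of the 43.

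Leader length moved with this result. Long main ORFs had a median leader of 255 bases against 183 for shorter ones, and fewer leaders under 50 bases (7.16%, with 12.2% of all main ORFs). Leaders over 1000 bases were listed for 35 (6.96%), against 6.22% of all main ORFs. The leader here is that of the transcript listed with the main ORF, while an upstream ORF may lie on another transcript of the family. Of the 6 long main ORFs with an upstream ORF and a leader under 100 bases, Nlrc5, Plxnc1 and Polr2a had a leader of 0 and Gon4l one of 92, with the upstream ORF farther in than that. The share with an upstream ORF was larger with longer leaders in both groups, up to 500 to 999 bases in the shorter main ORFs. With leaders of 100 to 249 bases it was 25.9% (41 of 158, interval 19.3 to 33.5) for long main ORFs and 14.4% (interval 13.3 to 15.7) for shorter ones. These intervals are apart. With leaders of 250 to 499 bases it was 39.0% (64 of 164, interval 31.5 to 46.9) against 29.9% (28.0 to 31.8), and the intervals just overlap. Below 100 bases (6.90% against 4.04%), at 500 to 999 (50.8% against 44.1%) and at 1000 bases or more (54.3% against 43.3%), they overlapped widely. The score limit moved the share: with ORFs of 700 or more it was 23.8% against 14.5% of all main ORFs, and with 900 or more 8.91% against 5.70%. The part of footprint depth and RNA level was not tested.

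**Figure D3:**
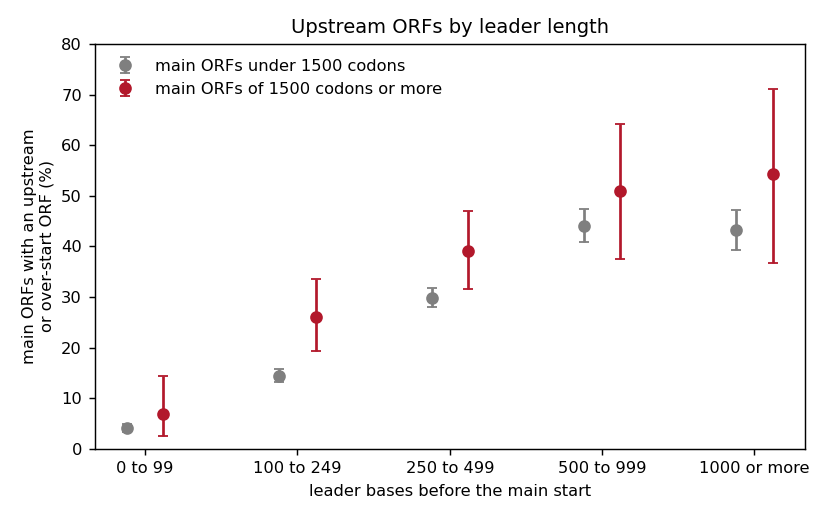
Share of main ORFs with an upstream ORF or one over the main start (percent, with 95% exact intervals) by the number of leader bases before the main start on the transcript listed with the main ORF, red for main ORFs of 1500 codons or more and grey for shorter ones. Red points lie above grey ones in all 5 classes, and the intervals are apart at 100 to 249 bases.

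The family with the most upstream ORFs was Nlrc5, the NOD-like receptor that switches on MHC class I genes, at chr8:96996663-97049975 in mm9. The transcript listed with its main ORF has a leader of 0 bases, and the upstream ORFs lie on other transcripts that hold the main start. These 11 ORFs had 9 to 52 codons, several shared a stop codon, and their scores ran from 511 to 935, 3 of them above the score of 767 of the main ORF. Hivep3, a zinc finger protein that binds kappa-B-like DNA elements, had 9 upstream ORFs of 9 to 35 codons in a leader of 1886 bases, with scores from 504 to 952 against 971 for the main ORF. Mll2, Vwf, Kat6a and Sipa1l3 had 5 each. In Vwf, which encodes von Willebrand factor, the clotting protein of endothelium and megakaryocytes, a 4-codon ORF scored 968 and the main ORF 916. In Madd, a MAP kinase-activating exchange factor for Rab proteins, 3 of 8 upstream ORFs had 351 to 445 codons, so it is uncertain how much of the coding sequence its main ORF of 1601 codons holds. Single upstream ORFs were listed in Htt (21 codons, score 693, ending 66 bases before the main start), which encodes huntingtin, in Atm (6 codons, 795, ending 3 bases before it), the DNA double-strand break kinase, and in Dock1 (3 codons, 825).

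**Figure D4:**
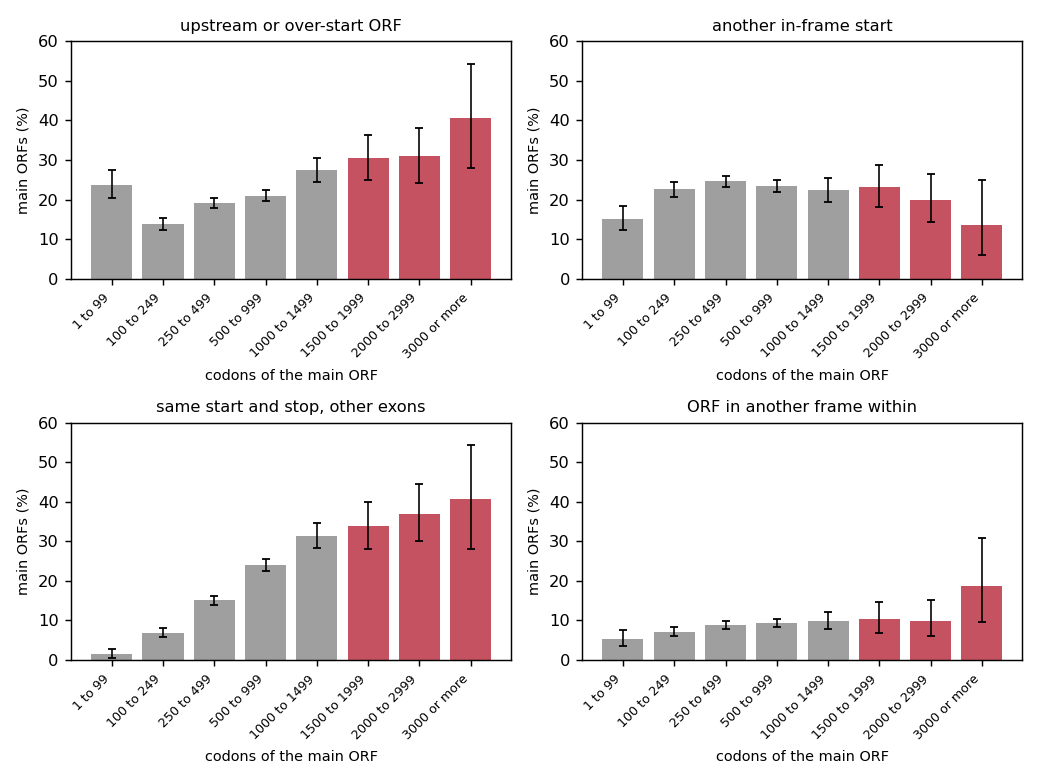
Share of main ORFs with a further ORF of 4 kinds (percent, with 95% exact intervals) by codons of the main ORF, red for 1500 codons or more. Upstream ORFs and variants with the same start and stop were listed for a larger share of the long classes, while the share with another in-frame start did not rise.

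Other in-frame starts, ORFs that end at the main stop codon and begin at another codon, were no more frequent than in the list at large. They were found in 105 long main ORFs (20.9%, interval 17.4 to 24.7), against 23.0% of all main ORFs. With ORFs of 700 or more the shares were 4.12% and 6.49%. These 160 ORFs had 123 distinct start codons. In 145 of these ORFs the start was a codon of the main ORF, a median of 40 codons inside it (quartiles 15 to 233), against 22 codons (10 to 62.75) in shorter main ORFs. As a share of the main ORF this depth was smaller in the long ones, with a median of 1.77% against 6.04%. Counted once per start codon, the 111 starts inside lay a median of 41 codons in (quartiles 14 to 387.5). An ORF with a start inside scored higher than the main ORF in 67 of 145 cases, and one with a start elsewhere in 9 of 15. In these counts, ORFs that share a start codon and a score count separately, such as the 4 of Tnrc6c. The presence of another in-frame start moved with the score of the main ORF: 48 of the 91 long main ORFs that scored under 700 had one (52.7%), 26 of 73 at 700 to 799 (35.6%), 16 of 144 at 800 to 899 (11.1%) and 15 of 195 at 900 or more (7.69%). Shorter main ORFs went the same way, from 61.6% under 700 to 9.51% at 900 or more.

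Named by their number of in-frame starts were Polr2a, Arid1a, Tnrc6c, Plec and Zzef1. Polr2a, the largest subunit of RNA polymerase II, scored 758 with 1949 codons, and all 6 further ORFs scored higher (774 or 793), from 2 start codons 25 and 387 codons inside. The transcript listed with its main ORF has a leader of 0 bases. Another listed transcript holds the main start inside the span of an ORF of 47 codons that begins 354 bases in and runs over that start. In Arid1a, a subunit of the BAF chromatin remodelling complex, a start 385 codons inside scored 793 against 756, while the other 3 starts gave ORFs of 19 to 27 codons at the far end of the protein. All 4 in Tnrc6c, a scaffold of microRNA silencing, shared a start 210 codons inside that scored 777 against 606 for the main ORF. In Plec, which encodes plectin, 2 of 3 further starts scored 817 and 867 against 600, on other first exons. A leader of 0 bases was listed for 9 long main ORFs (1.79%), against 0.461% of all main ORFs.

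Alternative exons were the most frequent addition. Variants with the start and stop of the main ORF and other exons between were listed for 180 long main ORFs (35.8%, interval 31.6 to 40.1), against 17.7% of all main ORFs. At 1000 to 1499 codons the share was 31.4% (28.2 to 34.7), so the intervals overlap, and it was larger with each length class from 1.43% under 100 codons. All 295 such variants had the score of their main ORF, so the score follows the start and stop and does not tell the variants apart. They were a median of 37 codons shorter (quartiles 14.5 to 84.5), and 264 of them still had 1500 codons or more. The share moved with the number of coding exons, from 8.82% (3 of 34) below 10 exons to 43.0% (61 of 142) at 30 to 39 and 39.9% (67 of 168) at 40 or more. At 10 to 19 exons it was 36.8% (interval 24.4 to 50.7) for long and 24.8% (23.3 to 26.3) for shorter main ORFs, and at 20 to 29 exons 27.5% (19.1 to 37.2) against 35.0% (31.8 to 38.3), so the order of the groups was not the same at every exon number. In-frame isoforms, which share codons with the main ORF in other ways, were listed for 62 (12.3%, background 6.75%). Downstream ORFs were listed for 10 (1.99%, background 1.91%). No further ORF was listed for 153 long main ORFs (30.4%), against 43.7% of all.

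ORFs in another frame or exon within the span of the main ORF were rare for its length. They were found in 56 long main ORFs (11.1%, interval 8.52 to 14.2), against 8.62% of all main ORFs, with 6.18% against 4.18% at scores of 700 or more. Their 85 ORFs had a median of 26 codons and a median score of 693. Per 1000 codons of main ORF this was 0.0756, against 0.211 over all main ORFs. Vps13d, a lipid transfer protein of mitochondria and peroxisomes, had 5 of them. The main ORF of Vps13d had 4389 codons, and its 5 inner ORFs had 2 to 52. Akap13, an exchange factor for small GTPases, had 4, of which 1 of 43 codons scored 917 against 853 for the main ORF.

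By function, 264 of the long main ORFs fell in 12 lists of large proteins and 11 in 4 lists of genes typical of other cell types, and 228 fell in none (median score 859.5). Scores given by gene are those of the main ORF, and another in-frame start scored higher in some genes. A long main ORF was listed for 264 of the 340 genes in the function lists (77.6%), for 11 of the 49 genes of other cell types (22.4%) and for 2.26% of the 21900 protein-coding genes of the naming table, of which 46.0% had a main ORF of any length. The lists were made of genes known for large proteins, so the share among all protein-coding genes is no measure of their content. They were also chosen with earlier results of these data known. The share of each list, and the contrast of 77.6% with 22.4%, were thus partly set by that choice. Why a gene is outside the list was not tested. The lowest listed score was 500, and a gene may also be listed under another name. A gene outside the list is not thereby untranslated.

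The machinery of movement and uptake was well covered. In the actin, spectrin and myosin list 26 of 35 genes had a long main ORF (median score 895.5). Among them were Myh9, the heavy chain of non-muscle myosin II (1960 codons, 985), Tln1, Svil, a membrane-cytoskeleton linker (2138, 969), Myo5a, a cargo motor (1880, 971), and Sptan1 and Sptbn1, the spectrins of nucleated cells (916 and 935). The ankyrins Ank1, Ank2 and Ank3, and Myh10 and Myh14, the other non-muscle myosin II heavy chains, had none. The list of DOCK proteins and other regulators of small GTPases had 17 of 27. Its highest scores were those of Dock10 (946), the Rac exchange factor Prex1 (945) and Dock2 (928), the Rac exchange factor of leukocyte migration. Dock8, which keeps migrating dendritic cells intact in dense tissue, scored 906. Dock3 and Dock9 were the DOCK genes with none. The microtubule list had 22 of 27 with a median score of 831, led by the kinesins Kif1b (981) and Kif13b (972). Dync1h1, the heavy chain of cytoplasmic dynein, had 4644 codons and a score of 669. Map1a and Map1b, microtubule proteins best known from neurons, had none.

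Membrane traffic and antigen handling followed. In the BEACH, VPS13 and traffic list 27 of 30 genes had a long main ORF (median 896). Wdfy4, a BEACH protein that dendritic cells need to cross-present antigen, had 3183 codons and a score of 949 at chr14:33773124-33976129 in mm9, with 2 upstream ORFs and 3 splice variants. Cltc, the clathrin heavy chain, scored 972 and Pikfyve, a lipid kinase of endosomes, 969. Lyst, the regulator of lysosome size, scored 541 and Lrba 511, while another in-frame start of Lyst (3787 codons) scored 685. Of 36 surface receptors and adhesion genes, 15 had one. Lrp1, a scavenger receptor (4545 codons), and Siglec1, a sialic acid-binding receptor of macrophages (1701 codons), scored 977 each, and Ly75, which encodes the antigen uptake receptor CD205, scored 863. The main ORFs of the plexins Plxna1 (529) and Plxnd1 (543) and the cadherin Fat1 (542) lay near the lower limit. Other in-frame starts scored 777 in Plxna1 (1909 codons) and 679 in Plxnd1 (1860 codons). Celsr1, Fat4, Lrp2, Notch3 and Stab2 were among 17 with no main ORF. Its median of 762 was the lowest of the function lists. The channel and ABC transporter list had 14 of 27, with 966 each for Itpr1 and Itpr2, the calcium release channels, and 873 for Abca1, the cholesterol exporter.

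**Figure D5:**
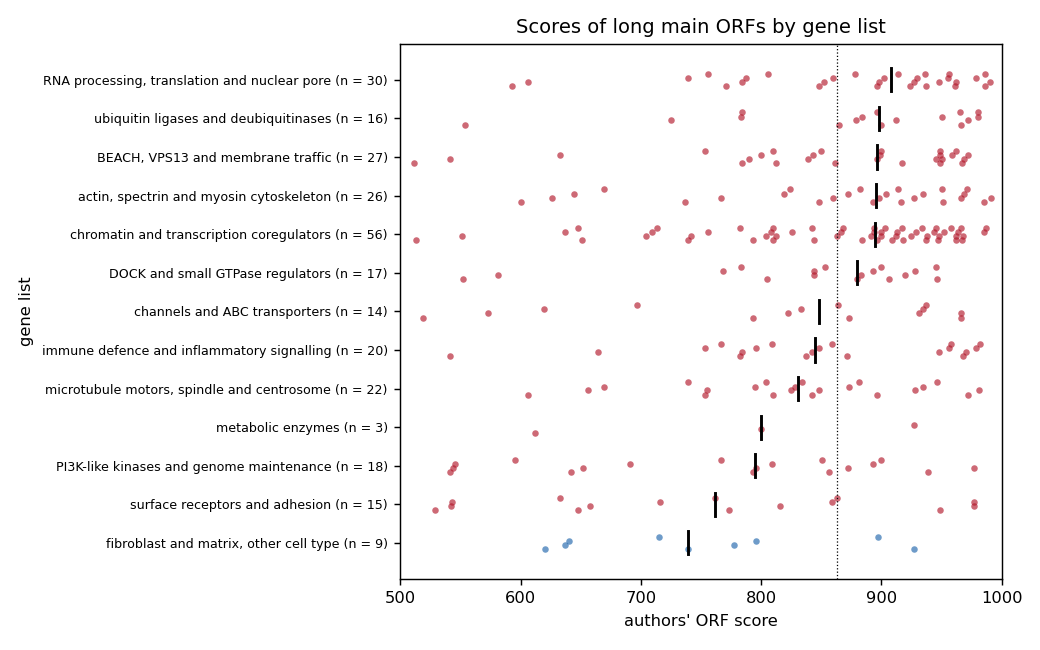
The authors' ORF score of each long main ORF (points) in the gene lists with at least 3 of them, with the list's median (black bar) and the median of all 503 (dotted line, 863). List medians run from 739 in the fibroblast and matrix list (blue) to 908 in the RNA processing, translation and nuclear pore list.

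Genes of the nucleus and of RNA handling are described next. The chromatin list had 56 of 62 with a median of 895, and 26 of the 56 had an upstream ORF, against 160 of 503 overall. So had 12 of 27 in the BEACH, VPS13 and traffic list and 10 of 20 in the immune defence and signalling list. These were the largest shares among the function lists, which together had 95 of 264. The RNA list had 11 of 30, the genome maintenance list 5 of 18, the actin list 6 of 26 and the channel list 3 of 14. Among the genes named for lysine methyltransferases, Kmt2a (3963 codons) scored 894, Kmt2b 917, Kmt2c 913, Kmt2d 810 and Kmt2e 863, and the related Setd1b, Setd2 and Ash1l scored 551, 713 and 808. The acetyltransferases Crebbp (903) and Ep300 (945) and the methylcytosine oxidases Tet2 (938) and Tet3 (934) were present, and Tet1 was not. The RNA, translation and pore list was complete, 30 of 30, with the highest median, 908. Xrn1, the cytoplasmic exonuclease, scored 986, Ranbp2, a nuclear pore protein, 962, and Prpf8, the core protein of the spliceosome, 956. The genome maintenance list had 18 of 19 with a median of 794.5. The main ORFs of Atm (545), Brca1 (541) and the proliferation marker Mki67 (544) scored low there, and that of Top2a, a topoisomerase of dividing cells, 977. Other in-frame starts scored up to 693 in Brca1 and 771 in Mki67. The ubiquitin list had 16 of 18 with a median of 898, with Herc2 at 980 and Birc6, an inhibitor of apoptosis, at 554. Other in-frame starts of Birc6, deep inside the main ORF, scored 943 (486 codons) and 576 (273 codons). Of 5 metabolic enzymes, Cad (927), the starting enzyme of pyrimidine synthesis, Fasn (800) and Acaca (612), both of fatty acid synthesis, were present. Another in-frame start of Acaca (2345 codons) scored 881.

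In the list of immune defence and signalling genes, 20 of 24 had a long main ORF (median 845). Many of its members, such as Nf1, Cic, Wnk1 and Ralgapa1, act in signalling of most cell types, so its count is not one of immune genes. C3, the central complement protein, scored 970 with 1663 codons, Samd9l 982 and Nfat5, a transcription factor of osmotic stress and macrophages, 968. Tsc2, the brake on mTOR, scored 979, Lrrk2 859 and Nlrc5 767. C4b and Hc, complement genes chiefly of liver, and Pik3c2b had none, and Ralgapb fell short of the limit by 5 codons.

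Among the genes of other cell types, all 12 of the muscle list lacked a long main ORF, Ttn and Neb included. Shorter main ORFs were listed for Dmd (411 codons) and Ryr1 (731 codons). Of 13 neuron genes only Cacna1b had one (614), and Bsn had a main ORF of 1376 codons. Both counts depend on the genes picked and do not cover all genes of these cell types. Speg, best known from striated muscle, was in no list and had a long main ORF (2427 codons, 512). So had Cacna1d (2127 codons, 753), also in no list, and the filamin Flnc (2726 codons, 737), counted in the actin list. Of 8 genes of liver, endothelium and epithelium only Vwf had one. The fibroblast and matrix list stood apart with 9 of 16, at scores from 620 to 927. Fn1, which encodes fibronectin and which macrophages also make, had the highest (927), followed by Col5a1 (897), and Hspg2 (637), Fbn1 (640) and Col6a3 (620) the lowest. Whether other cells of the cultures contributed these ORFs was not tested.

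Related genes were set side by side in 19 groups of 50 genes, chosen after the values were seen, so their likeness is a description of the choice. In 5 groups the number of coding exons was equal, in 10 it was equal or differed by 1, and in 9 it differed by 2 to 4. Tln1 and Tln2 both had 2541 codons in 56 coding exons, with scores of 991 and 882. Dock1, Dock2 and Dock5 had 52 coding exons each, and Sipa1l1, Sipa1l2 and Sipa1l3 had 20 each. The inositol trisphosphate receptors had 58, 57 and 58, but Itpr3 scored 793 against 966 for the other two. Footprints that fit more than 1 of such genes could be assigned to either, and how the authors treated them is not given in the sources used here.

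For 18 of the long main ORFs the family name or its ORFs leave the gene uncertain. In 3, the name is that of a small RNA inside a large gene of the naming table: Mir1932 inside Rnf213, Scarna9 inside Cep295 and Snora30 inside Srcap. Rnf213, a giant interferon-induced ubiquitin ligase, and Srcap, a chromatin remodeller, had no ORF under their own names, and are counted above as having none. The Mir1932 family had 5149 codons, a score of 991 and a span of 93.1 kb, and the Snora30 family had 3291 codons and a score of 868. In 12, another ORF of 200 codons or more lay outside the main ORF. In Orai3, a small calcium channel subunit, the leader of the 1716-codon main ORF was 10218 bases long and held an ORF of 290 codons that scored 911. Its neighbours in the naming table are Fbxl19 and Setd1a, and Setd1a is a gene of the chromatin list with no ORF of its own name. In Nrm, a nuclear membrane protein, the main ORF of 1708 codons was followed by an ORF of 594 codons that scored 983, and the neighbouring Mdc1, a DNA damage mediator, had no ORF of its own name. Rhot2, next to Wdr90, had a downstream ORF of 612 codons. Another 3 families had no name in the table, TCONS_00085712, TCONS_00051319 and BC018507, and TCONS_00020678, which also had large further ORFs, had none either. Syne1 was split into 2 families of 3010 and 2912 codons that lie apart on chromosome 10.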

How the data were processed

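Ribosome footprints of mouse dendritic cells were analysed through 1 deposited list of ORFs for all 37 libraries in 28 groups. Per the submitters' processing notes, Bowtie2, TopHat and the mm9 build were used, and no source used here names the ORF caller. Each line of the deposited list gives a transcript's exons, the ORF's span and a score that the authors assigned, from 500 to 991. ORFs that the list does not hold are not analysed here. Named lengths equalled the coding bases, stop codon included, in each of 22367 ORFs.

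Main ORFs were chosen by codons, and other ORFs of a family were classed by position and frame against them (Python 3.11.15, NumPy 2.4.6, SciPy 1.17.1). On simulated families 300 of 300 main ORFs and 735 of 735 classes were recovered. Of 503 family names, 459 matched a symbol of RefSeq's GRCm38.p6 gene table, 12 did so without a suffix, 28 by an older name and 4 did not. RefSeq windows of transcript starts matched 409 of them.

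With 1 value per ORF and none per library, no test was made. Shares have exact Clopper-Pearson intervals, medians order-statistic binomial intervals. Members and gene lists were chosen with earlier results of these data known. Genes are named by rank: most codons, highest and lowest scores, most further ORFs, longest leaders, exons and spans, those nearest the limit, and members of each list. Others named were chosen after their values were seen. Alternatives were stricter scores, another main ORF, 1 family per gene, other length limits and narrower upstream ORFs, and, added after seeing the data, removal of uncertain families. A planned comparison with RefSeq protein lengths was not run, since no protein table was used here. A few named genes are left out of the text.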

Additional observations from a re-analysis of the deposited data

How the results depend on the processing

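Scores set most of what moved. Among ORFs scoring 700 or more, with main ORFs chosen again, the median score of long main ORFs was 893 (938 over all main ORFs). Their shares with an upstream ORF, another in-frame start and an ORF within were 23.8%, 4.12% and 6.18%, against 14.5%, 6.49% and 4.18% over all. At 900 or more, 202 long main ORFs were left, with a median of 949.5 (962 over all) and shares of 8.91%, 0.495% and 0.495%, against 5.70%, 0.427% and 0.929%, so the order of the last 2 turned, on 1 long main ORF each. Fewer ORFs remain at these scores by construction. With the highest-scoring ORF of a family as its main ORF, 425 had 1500 codons or more, their median score was 884 (941 over all), and the shares were 24.2%, 16.9% and 8%, against 16.4%, 21.6% and 6.08%. Counting upstream ORFs of 10 codons or more left 25.6% with one, against 15.5%. The other 21 recomputed values stayed within the interval of the value reported or, for numbers, within 1.5 times it: those for limits of 1200 and 2000 codons, 1 family per gene, upstream ORFs on a transcript with the main start and removal of the 18 uncertain families, the number at a score of 700 or more, and the number of 425.

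No paired analysis was possible because the list holds no value per library. The 2 planned results on RefSeq protein lengths were not run. Depth, RNA level and translation efficiency are unknown here, so a missing ORF is not an untranslated one, and a score cannot be read as a rate.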
